A study of Arabidopsis thaliana with 24 samples.

Results

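The 182 genes described here were higher in iron-deficient than in iron-sufficient wild-type Arabidopsis roots and higher again in iron-deficient roots of the pye-1 mutant. They were chosen by measured values. On the scale log2(RPKM + 0.5), where RPKM is the number of reads scaled for gene length and library size, a member had to be at least 1 higher in wild type without iron than with it. It also had to be at least 1 higher in pye-1 than in wild type without iron, with a largest RPKM of at least 5 over the 8 groups. The RPKM limit kept 15535 of the 33602 genes in the table, and 182 of them met both differences. The differences that chose the members are given as a description only, and the question taken to the data is where 5 lines with differently placed PYE put these genes.

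POPEYE (PYE) is a bHLH (basic helix-loop-helix) protein induced in roots by iron deficiency and known as a repressor of genes that distribute and store iron. Plants short of iron raise uptake from the soil, and they also lose activity of iron-dependent proteins in the mitochondrial electron transport chain. When oxygen is short, plants switch to fermentation and sucrose cleavage, a response held in check in air by iron-containing plant cysteine oxidases that mark its transcription factors for degradation. Mitochondrial distress is reported to the nucleus by membrane-bound NAC transcription factors, which bind a short element called the mitochondrial dysfunction motif.

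RNA of 24 samples was sequenced, 3 in each of 8 groups, from roots of 7 day old seedlings of Arabidopsis thaliana cut off with a razor. Wild type (WT) was kept for its first 4 days with iron and for the last 3 days either with 0.1 mM FeEDTA or without it and with 300 µM ferrozine, a chelator of ferrous iron. All other groups were iron-deficient: the PYE mutant pye-1 and 5 lines in which PYE was placed in different cells. The labels give a GFP localization of V-EN-C-EP for PPL, V-EN for SHR23, C-EN-V for PEP45, EP-C for WER13 and EP for WER65, without spelling out the codes. The labels do not state the mutant background of the lines, the promoter of each transgene, or whether WER13 and WER65 are separate transformants, and they write the pye-1 genotype as PYE. They do not say whether the 3 samples of a group came from separate cultures.

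Values are the authors' mean RPKM, deposited as 1 column per group, so no spread between samples could be computed. A gene is said to have risen or fallen only where the authors' deposited table for that comparison lists it, the largest q-value listed being 0.05. Small steps between low values pointed to effective libraries of 14800000 to 24000000 reads. PYE itself (AT3G47640) stood at 11 RPKM in wild type with iron, 45.1 without it, 20.6 in pye-1, 25.3 in PPL, 45.8 in SHR23, 28.9 in PEP45, 30.3 in WER13 and 27.5 in WER65. Of the iron-deficient groups, pye-1 had the lowest level and PPL the next lowest. In the authors' deposited table of PPL, 1 of all genes kept fell (0.00644%). It was on the list of 17 iron regulators, which includes PYE. Summed RPKM of 7 root hair markers was 117 in iron-deficient wild type, 19.9 in pye-1, 89.7 in PPL, 23.2 in SHR23, 25.1 in PEP45, 27.8 in WER13 and 77.1 in WER65. In the authors' deposited tables all 7 fell in pye-1 (10.3% of all genes kept), SHR23 (10.3%), PEP45 (9.87%) and WER13 (14%), 2 fell in WER65 (11.7%) and none in PPL (0.00644%). Summed RPKM of 10 shoot photosynthesis markers was 264, 64, 77.6, 37, 316, 15.6 and 12.6 in the same order, and RBCS1B, RBCS2B, RBCS3B and LHCB2.1 were at 0 in WER65. Summed Casparian strip markers went from 259 in iron-deficient wild type to 107 in pye-1, and all 5 lines lay between those values. None of the markers was a member. In whole roots, fewer cells of a type and less RNA per cell cannot be told apart, and the part these markers have in the values below was not tested.

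With iron, most members were quiet. Their median was 0.920 RPKM, 94 of them lay under 1 RPKM, and 11 were listed at 0. The median was 7.75 RPKM in wild type without iron and 25.6 RPKM in pye-1, while that of all 15535 genes kept was between 17.3 and 17.7 RPKM in every group. The median log2 difference over members was 2.08 for iron deficiency and 1.51 for pye-1, both fixed in sign by the way the members were chosen. The authors' deposited tables list 169 of the 182 as higher without iron, against 10.9% of all genes kept, and 179 as higher in pye-1, against 8.81%. Among the members, 175 are protein-coding genes, 3 are transcribed pseudogenes, 3 are non-coding RNA genes and 1, AT1G06860, is a tRNA gene that neither table lists. The limits fall among near neighbours. Just inside the first difference were AT1G04360, ALMT1 and AT1G05730, at 1.00, 1.01 and 1.01, and just outside were AT5G55180, AT4G38780 and DML3, at 0.996, 0.980 and 0.973. Just inside the second were ABCG16, LACS2 and CYP86A2, at 1.01, 1.02 and 1.02, and just outside were SNOR77, BPS3 and AHG1, at 0.999, 0.994 and 0.989. By largest RPKM, SRO4, WIP3 and AT1G55525 passed at 5.06, 5.39 and 5.40, while AT1G71280, AT5G37490 and AOX1D missed at 4.91, 4.85 and 4.58. AOX1D, a mitochondrial alternative oxidase gene that was absent from the set by this limit alone, stood at 0.0165 RPKM with iron, 0.646 without iron and 4.58 in pye-1.

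**Figure D1:**
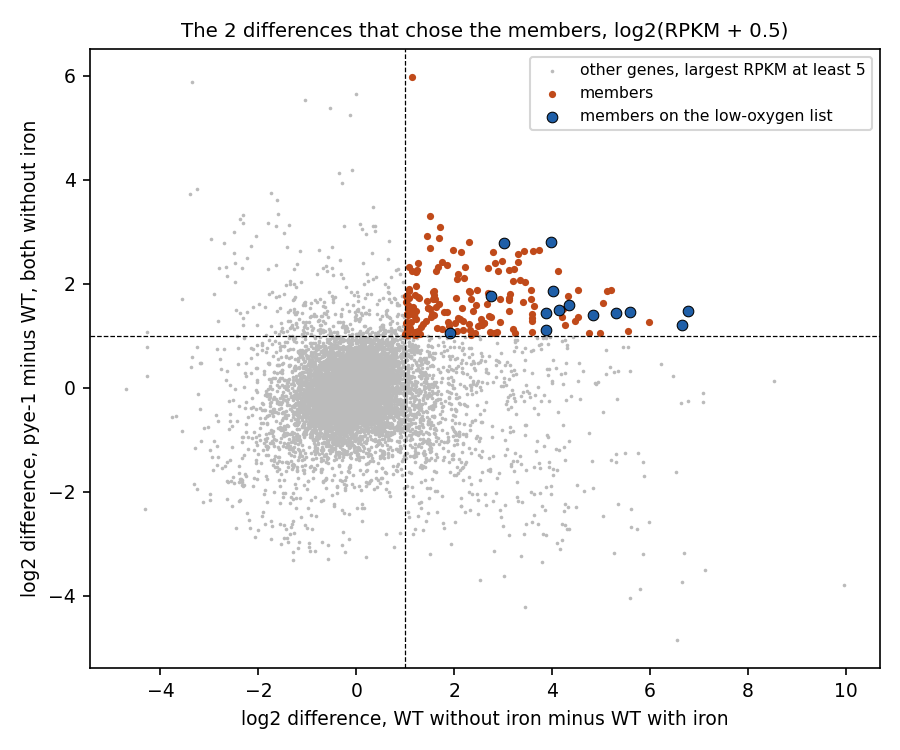
Each point is a gene with a largest RPKM of at least 5, placed by its log2 difference between wild type without and with iron (horizontal axis) and between pye-1 and wild type, both without iron (vertical axis), on log2(RPKM + 0.5). The 182 members are red, the 14 of them on the low-oxygen list are blue, and the dashed lines are the limits at 1; VTL2 stands alone at the top with a pye-1 difference of 5.97.

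By their medians the members lay near iron-deficient wild type in PPL, and near pye-1 in PEP45, WER13 and WER65. SHR23 was divided. The position of a gene in a line was expressed as its placement, the log2 difference of the line from iron-deficient wild type divided by that of pye-1, so that 0 is the wild-type level and 1 the pye-1 level. Median placement over the 182 members was 0.176 in PPL, 0.741 in SHR23, 0.913 in PEP45, 0.999 in WER13 and 0.969 in WER65. Members nearer to pye-1 than to wild type numbered 9 in PPL, 121 in SHR23, 170 in PEP45, 145 in WER13 and 162 in WER65. Both ends of this span were used to choose the members, so placements are positions and not tests. In PPL, 44 members were at or below wild type and none was above pye-1. At or below wild type were 26 members in SHR23, 1 in PEP45, 13 in WER13 and 3 in WER65. Above pye-1 were 57, 65, 91 and 84 in that order. The lower quartiles were 0.247, 0.759, 0.561 and 0.667.

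No member was listed in PPL, where 0.00644% of all genes kept were listed as higher and 0.00644% as lower. In SHR23, 122 members rose in the authors' deposited table, against 7.58% of all genes kept, and 6 fell, against 10.3%. In PEP45, 168 members rose in the authors' deposited table (all genes kept, 8.52%), and none fell (9.87%). WER13 had 153 that rose (8.91%) and 4 that fell (14%) in the authors' deposited table. WER65 had 164 that rose (7.99%) and none that fell (11.7%) in the authors' deposited table. Counted by size, members at least 2-fold higher than iron-deficient wild type numbered 4 in PPL (0.0579% of all genes kept), 101 in SHR23 (3.61%), 143 in PEP45 (3.51%), 133 in WER13 (3.68%) and 141 in WER65 (3.25%). At least 2-fold lower were 0, 2, 0, 1 and 0 in that order (0.444%, 4.81%, 4.28%, 7.07% and 5.38%). These comparisons all use the same iron-deficient wild-type samples, which the choice of members also used, so the counts are not independent of one another or of the choice.

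**Figure D2:**
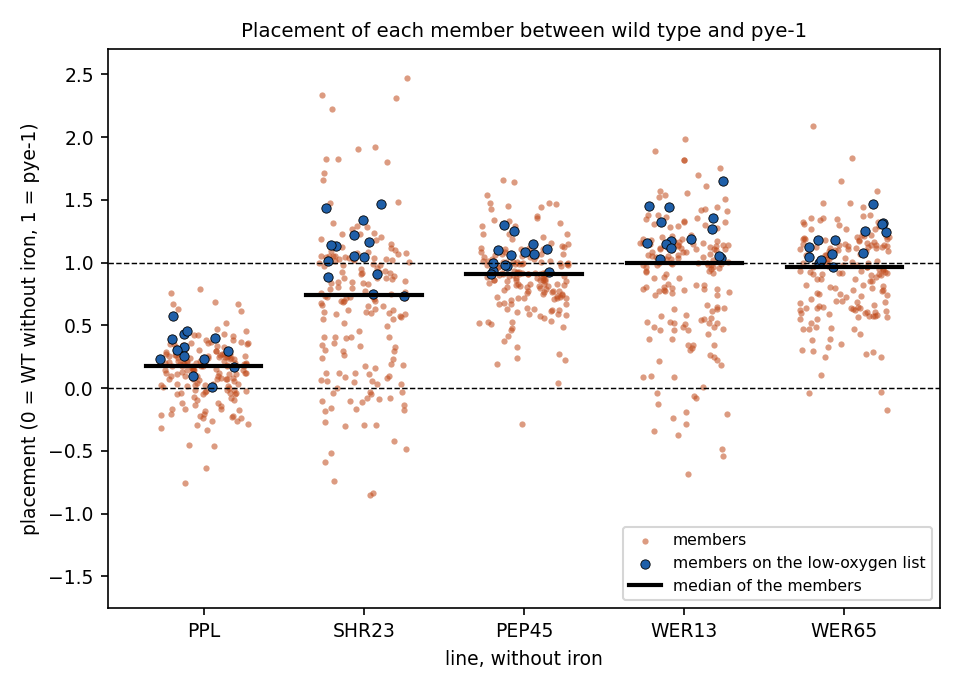
Each point is a member, placed by line (horizontal axis) and by its position between iron-deficient wild type at 0 and pye-1 at 1 (vertical axis, ratio of log2 differences), with a black bar at the median of the 182 members. PPL centres at 0.176, PEP45, WER13 and WER65 centre between 0.913 and 0.999, and SHR23 spreads from -0.847 to 2.47; the 14 low-oxygen members in blue lie at or above 0.733 in those 4 lines.

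Members from the low-oxygen response lay around or above the pye-1 level in every line but PPL. Of 38 genes on the low-oxygen list, all of them above the RPKM limit, 14 (36.8%) were members, against 1.17% of all genes kept. The list was chosen with earlier results of these data known, so this share is a description. This was the longest list, and the shares of the detoxification and heat shock lists, of 6 genes each above the limit, were 33.3%. Over those 14 the median placement was 0.298 in PPL, 1.09 in SHR23, 1.07 in PEP45, 1.18 in WER13 and 1.15 in WER65. Among the enzymes, ADH1 (alcohol dehydrogenase, the last step of ethanol fermentation) stood at 2.48 RPKM in wild type with iron, 299 without iron, 693 in pye-1, 415 in PPL, 774 in SHR23, 735 in PEP45, 932 in WER13 and 904 in WER65. PDC1 (pyruvate decarboxylase, the step before it) went 5.51, 97.2, 355, 143, 251, 315, 379 and 355 RPKM over the same groups. SUS4 (a sucrose synthase) went 1.77, 64.4, 171, 86.4, 269.7, 228, 264 and 231 RPKM. For all 3 enzymes PPL was the lowest of the lines, above iron-deficient wild type and below pye-1, and it is not listed as different from wild type. ADH1 rose in the authors' deposited tables of SHR23 (q = 9.05e-05), PEP45 (q = 4.49e-05), WER13 (q = 6.88e-05) and WER65 (q = 2.41e-05).

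In the regulators and binding proteins of the low-oxygen group, PPL was likewise the lowest of the lines. PCO2, a plant cysteine oxidase that uses oxygen to mark low-oxygen transcription factors for degradation, went from 0.122 RPKM with iron to 24.2 without iron and 65.9 in pye-1, and stood at 36.2 in PPL, 92.2 in SHR23, 76.3 in PEP45, 102 in WER13 and 83.9 in WER65. LBD41, a LOB domain transcription factor, stood at 98.7 RPKM in iron-deficient wild type, 279 in pye-1, 109.7 in PPL and 278 to 339 in the other 4 lines. HB1, a non-symbiotic hemoglobin that scavenges nitric oxide, stood at 215, 594, 299 and 529 to 714 RPKM in the same order. ACO1, which makes ethylene, and SAD6, a stearoyl-ACP desaturase, reached 131 and 89.4 RPKM in pye-1, with 86.1 and 64.6 in PPL. Among PPL values the placement of SAD6, 0.578, was the highest of the 14. AT3G03270, annotated as an adenine nucleotide alpha hydrolase-like protein, was the most abundant of the group: 36.1 RPKM with iron, 246 without, 835 in pye-1, 429 in PPL, 888 in SHR23, 949 in PEP45, 1154 in WER13 and 1134 in WER65. AT4G10270 and AT4G10265, neighbouring genes for wound-responsive family proteins, stood at 166 and 27.3 RPKM in pye-1 against 0.0462 and 0.199 with iron. AT4G24110, AT2G17850 and AT5G10040 complete the 14, the last 2 being listed at 0 with iron. In each of the authors' deposited tables of SHR23, PEP45, WER13 and WER65, all 14 rose. In the whole list of 38, the authors' deposited tables have 29 that rose without iron (10.9% of all genes kept) and 30 that rose and 3 that fell in pye-1 (8.81% and 10.3%). In each of those 4 lines 31 or 32 rose and 2 fell in the authors' deposited tables, where 7.58% to 8.91% of all genes kept rose and 9.87% to 14% fell. ADH1, AT4G10270 and AT5G10040 overlap genes on the opposite strand, and the strand setting of the authors' counting is not given in the sources used here.

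**Figure D3:**
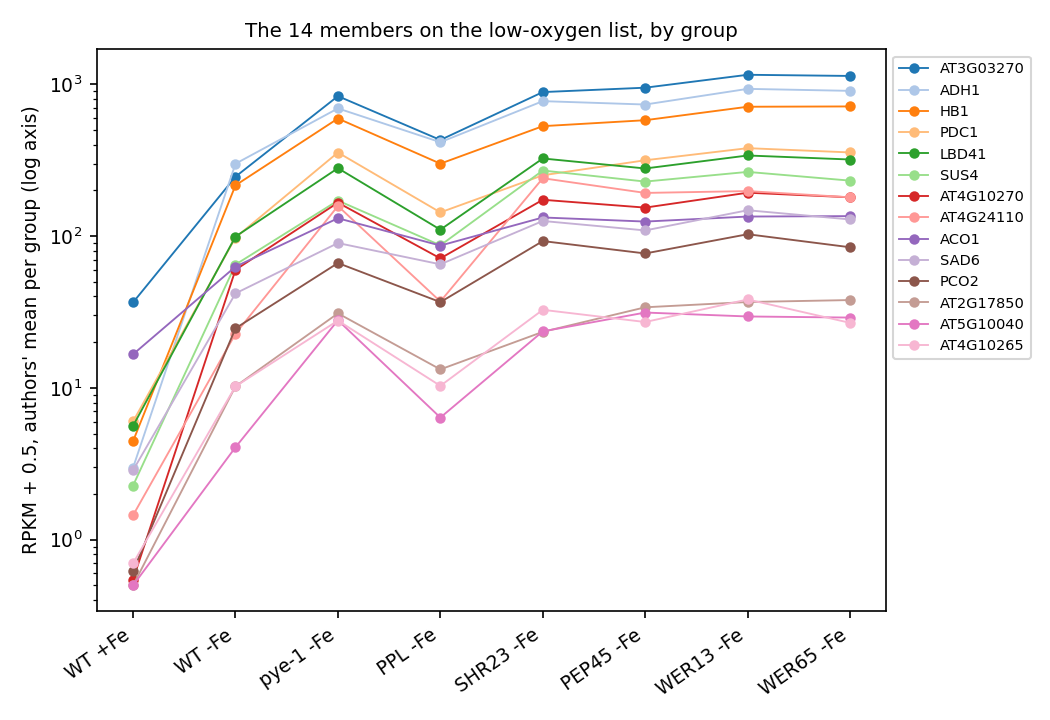
Lines join the authors' mean RPKM + 0.5 (vertical log axis) of each of the 14 low-oxygen members over the 8 groups (horizontal axis), with WT +Fe and WT -Fe for wild type with and without iron. Every gene is lowest in WT +Fe, and every gene is lower in PPL than in pye-1, SHR23, PEP45, WER13 or WER65.

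The single largest pye-1 difference belonged to an iron storage gene. It was the only member among 9 genes of the iron storage list above the RPKM limit. Without iron, 6 of these 9 fell and 1, the member, rose in the authors' deposited table (11.9% and 10.9% of all genes kept). In pye-1 all 9 rose (8.81%). VTL2, a vacuolar iron transporter-like protein of the family that moves iron into vacuoles, stood at 2.44 RPKM with iron, 5.96 without iron, 404 in pye-1, 5.58 in PPL, 511 in SHR23, 519 in PEP45, 486 in WER13 and 460.4 in WER65. Its pye-1 difference of 5.97 on log2(RPKM + 0.5) was the highest of the members, and the next, HSP17.6II, was at 3.30. For iron deficiency VTL2 lay near the limit of 1, with a difference of 1.13 and q = 0.0476 in the authors' deposited table. It rose in the authors' deposited tables of SHR23 (q = 4.65e-11), PEP45 (q = 3.15e-11), WER13 (q = 2.25e-11) and WER65 (q = 1.11e-09) and is not listed in PPL. The 250 bases before its start, shown because none of the short elements searched for below is found in them apart from the general E-box, read as follows (RefSeq annotation of TAIR10.1, chr1:28828993-28829242, plus strand).
VTL2: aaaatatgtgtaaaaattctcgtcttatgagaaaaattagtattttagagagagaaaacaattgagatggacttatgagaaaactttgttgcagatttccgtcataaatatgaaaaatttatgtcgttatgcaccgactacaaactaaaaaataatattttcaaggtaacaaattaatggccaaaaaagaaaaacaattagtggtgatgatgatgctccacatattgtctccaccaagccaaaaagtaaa

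Other iron lists gave 2 members, FRD3 and AT2G30766, and the uptake list gave none. FRD3, a citrate exporter that keeps iron mobile in the xylem, stood at 31.6 RPKM with iron, 107 without iron, 234 in pye-1, 96.6 in PPL, 293 in SHR23, 256 in PEP45, 314 in WER13 and 287 in WER65. AT2G30766, which the annotation calls an uncharacterized protein, stood at 0.215, 22.2, 46.3, 36.4, 89.8, 60.8, 84.1 and 53 RPKM in the same order, and shares bases with 2 genes on the opposite strand. Both genes lay above pye-1 in SHR23, PEP45, WER13 and WER65, with FRD3 placements of 1.29, 1.12, 1.38 and 1.26 and AT2G30766 placements of 1.91, 1.37, 1.82 and 1.18. Of the 16 uptake genes, all 16 rose without iron in the authors' deposited table (10.9% of all genes kept) and 15 fell in pye-1 (10.3%). NIA1, nitrate reductase, was the nitrate gene among the members, at 2.90 RPKM with iron, 18.23 without iron, 68.5 in pye-1, 24.8 in PPL and 50.5 to 68.5 in the other lines. ACS7, which makes the precursor that ACO1 turns into ethylene, stood at 0.460, 8.57 and 18.4 RPKM in wild type with iron, wild type without iron and pye-1, at 11.4 in PPL and at 19.3 to 24 in the other lines.

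Mitochondrial genes were a further group. AT2G21640, annotated as a marker of the oxidative stress response, stood at 2.50 RPKM with iron, 140.4 without iron, 298 in pye-1, 168 in PPL, 272 in SHR23, 252 in PEP45, 340.5 in WER13 and 331 in WER65. ANAC013, a NAC transcription factor that binds the mitochondrial dysfunction motif, stood at 26.4 RPKM in iron-deficient wild type, 62.6 in pye-1, 35.1 in PPL and 63.4 to 79.6 in the other lines. Both were on the mitochondrial list, of which 2 of 7 genes above the RPKM limit were members. Outside that list, and named after their values were seen, NDA1 (an alternative NAD(P)H dehydrogenase of mitochondria) and LON1 (a mitochondrial protease) reached 5.04 and 43.2 RPKM in pye-1, from 1.24 and 19.6 in iron-deficient wild type. In SHR23 the placement of LON1 was 0.294 and that of NDA1 was 0.848, so these genes were not placed alike. CYP81D8 and GSTU4, a cytochrome P450 and a glutathione S-transferase of the detoxification list, reached 45.7 and 25.5 RPKM in pye-1 from 12.4 and 7.06, with SHR23 placements of 0.837 and 0.661.

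The promoters of 28 members matched the letters searched for as the mitochondrial dysfunction motif. The window searched ran from 250 bases before to 50 bases after the RefSeq start of each gene, on both strands. The letters of this motif, CTTG, any 5 bases, CA, any base and G, were found in 28 of 182 members (15.4%), in 1.56% of 15490 genes of at least 5 RPKM with a window, and in 2.16% of 32834 genes of the whole table. This motif was added after the members' values were seen, and a match is a description of these letters and not a bound site. The base before the last G was left open in the search, so a match need not be a full copy of the motif. Of 33 matches in members, 21 began within the 150 bases before the start. Over the 28 members the median was 2.28 RPKM with iron, 31.9 without iron, 93.5 in pye-1, 34.5 in PPL, 93.7 in SHR23, 94.2 in PEP45, 108 in WER13 and 113 in WER65. Their median placement in SHR23 was 0.861, against 0.726 for the members without it. Among all 242 genes with the motif and at least 5 RPKM, 11.6% were members, against 1.17% of all genes of at least 5 RPKM. Of the 242, 27.3% rose without iron and 25.2% rose in pye-1 in the authors' deposited tables, against 10.9% and 8.81% of all genes kept, while 12% and 8.26% fell, against 11.9% and 10.3%. The 242 include the 28 members, which were chosen for being higher in these same comparisons. The shares that rose are therefore raised in part by the choice of members.

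These 4 promoter stretches are shown because they carry the motif in members of different function, each 250 bases before the start, with the mitochondrial dysfunction motif, the G-box CACGTG and the hypoxia-responsive element in capitals (TAIR10.1; ADH1 at chr1:28975005-28975254, plus strand; AT2G21640 at chr2:9254128-9254377, plus strand; AT2G04050 at chr2:1339469-1339718, minus strand; HSP17.6II at chr5:3883112-3883361, minus strand).
ADH1: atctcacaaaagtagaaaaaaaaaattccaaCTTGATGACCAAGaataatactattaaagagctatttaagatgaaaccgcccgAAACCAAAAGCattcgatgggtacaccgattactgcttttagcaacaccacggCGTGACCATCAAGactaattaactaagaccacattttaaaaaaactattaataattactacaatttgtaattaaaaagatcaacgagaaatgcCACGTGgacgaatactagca
AT2G21640: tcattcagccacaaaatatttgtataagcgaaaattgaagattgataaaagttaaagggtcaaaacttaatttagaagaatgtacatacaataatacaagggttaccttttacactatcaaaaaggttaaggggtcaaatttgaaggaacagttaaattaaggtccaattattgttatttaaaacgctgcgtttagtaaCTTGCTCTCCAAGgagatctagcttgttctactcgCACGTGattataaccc
AT2G04050: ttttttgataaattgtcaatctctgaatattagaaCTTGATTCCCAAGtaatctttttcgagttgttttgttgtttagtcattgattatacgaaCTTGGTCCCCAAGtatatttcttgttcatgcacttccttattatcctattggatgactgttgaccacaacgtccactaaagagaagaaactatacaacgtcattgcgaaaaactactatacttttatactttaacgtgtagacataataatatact
HSP17.6II: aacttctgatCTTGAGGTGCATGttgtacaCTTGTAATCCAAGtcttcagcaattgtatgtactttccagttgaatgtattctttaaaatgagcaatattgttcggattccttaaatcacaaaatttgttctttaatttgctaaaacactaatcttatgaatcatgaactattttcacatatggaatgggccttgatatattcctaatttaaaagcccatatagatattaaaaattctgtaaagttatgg
ADH1 holds all 3 elements, with 2 matches to the mitochondrial dysfunction letters beginning 219 and 113 bases before the start. AT2G21640 holds 1 match 51 bases before the start and a G-box. AT2G04050, a gene for a MATE efflux protein, and HSP17.6II, a gene for a class II small heat shock protein, hold 2 matches each. In the first match of HSP17.6II the open base before the last G is T.

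The other elements differed less between members and all genes. The E-box CANNTG, the general basic helix-loop-helix letters, was found in 63.7% of members and 62.1% of genes of at least 5 RPKM, and the G-box CACGTG, which is also an E-box and contains ACGTG, in 9.34% and 8.74%. The abscisic acid response core ACGTG was found in 34.1% and 27.8%, the GCC-box GCCGCC in 4.95% and 2.7%, and the heat shock letters GAANNTTC, also added later, in 13.7% and 11.1%. The hypoxia-responsive element, searched as AAACCA, any 3 bases and GC, was found in 3 members (1.65%) and 1.09% of genes of at least 5 RPKM. All 3, ADH1, AT4G10265 and AT4G10270, were among the 14 low-oxygen members, and 5 of the 24 low-oxygen genes that were not members held it.

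Cell cycle checkpoint genes lay at or above the pye-1 level in WER13 and WER65. Among 9 genes above the RPKM limit of a DNA damage list, added after values were seen, 4 were members. SMR5, an inhibitor of cyclin-dependent kinases, stood at 4.32 RPKM with iron, 129 without iron, 269 in pye-1, 92.2 in PPL, 715 in SHR23, 379.9 in PEP45, 515 in WER13 and 495 in WER65. It overlaps a gene on the opposite strand by 266 bases. SMR7, of the same family, stood at 9.90 RPKM in iron-deficient wild type, 29.1 in pye-1, 7.67 in PPL, 26.7 in SHR23, 32.7 in PEP45, 44.9 in WER13 and 42.9 in WER65. NAC044, a transcription factor of the checkpoint, and GMI1, a protein of DNA repair, stood at 25 and 7.79 RPKM in pye-1 and at 30.8 and 11.7 in WER13. The 4 members had median placements of 1.03 in SHR23, 1.04 in PEP45, 1.37 in WER13 and 1.25 in WER65. In PPL both SMR genes lay below iron-deficient wild type, and neither is listed there.

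Barrier and transport genes were spread over the set. Of 6 genes of cutin precursor synthesis above the RPKM limit, a list added after values were seen, CYP86A2, CYP86A4 and LACS2 were members. Their median placement was 0.516 in SHR23 and 1.01, 1.07 and 0.979 in PEP45, WER13 and WER65. LACS2, a long-chain acyl-CoA synthetase, stood at 25.1 RPKM in iron-deficient wild type, 51.4 in pye-1, 29.2 in PPL, 33.7 in SHR23, 51.6 in PEP45, 54.5 in WER13 and 50.6 in WER65; it rose in the authors' deposited tables of the last 3 and is not listed in SHR23. No gene of the suberin list was a member. Families were also gathered by annotation words after values were seen, to be set beside the 1.17% of all genes kept that were members. Members included 5 of 110 cytochrome P450, 2 of 49 WRKY, 6 of 113 P-loop ATPase-like, 3 of 39 glutathione S-transferase and 2 of 9 laccase genes. They also included 5 of 53 ABC transporter genes, 5 of 28 MATE efflux genes, 4 of 49 NAC genes and 6 of 47 genes annotated as peroxidase superfamily proteins. DOX1, a fatty acid alpha-dioxygenase that carries that annotation, had the highest RPKM of all members in pye-1, at 1506, and stood at 573 in iron-deficient wild type, 698 in PPL and 801 to 1092 in the other lines. The MATE genes split in SHR23: FRD3, AT2G04050 and AT2G04070 were above pye-1, with placements of 1.29, 1.19 and 1.48, while DTX1 and AT1G71140 had placements of 0.188 and -0.518. DTX1 and AT2G04050 are neighbours with similar sequence annotation, so reads shared between such copies could be split differently by the counting.

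**Figure D4:**
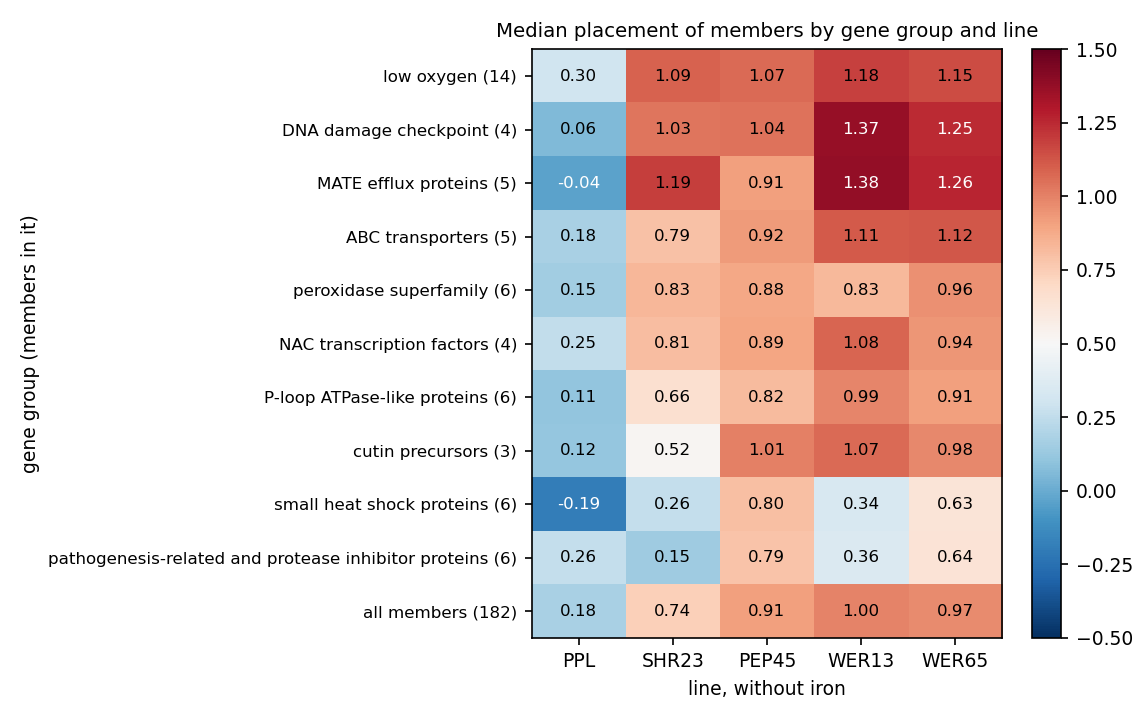
Cells give the median placement of the members in each gene group (rows, with the number of members) in each line (columns), coloured from blue at -0.5 to red at 1.5, where 0 is iron-deficient wild type and 1 is pye-1. Low-oxygen members lie at 1.07 or above in SHR23, PEP45, WER13 and WER65. Small heat shock protein genes and pathogenesis-related or protease inhibitor genes lie at 0.26 and 0.15 in SHR23 and at 0.80 and 0.79 in PEP45. The low-oxygen list was chosen with earlier results of these data known, and the other groups were chosen after the members' values were seen.

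Part of the set was low in SHR23. Cut at a placement of 0.25, a value picked after the data were seen, 46 members were low in SHR23, 46 lay from 0.25 to 0.75 and 90 were at 0.75 or more. The 46 low members had median placements of -0.0431 in SHR23, -0.0261 in PPL, 0.622 in PEP45, 0.367 in WER13 and 0.559 in WER65. Placements in all lines use the same wild-type and pye-1 values, so the medians in the other lines may follow in part from the cut. None of the 14 low-oxygen members was among them, and 12 of the 14 were among the 90. PDF2.1, a defensin-like protein, stood at 14.2 RPKM with iron, 34.9 without iron, 187 in pye-1, 54.6 in PPL, 30.1 in SHR23, 141 in PEP45, 91.7 in WER13 and 102 in WER65. It rose in the authors' deposited tables of PEP45 (q = 2.20e-07), WER13 (q = 3.22e-06) and WER65 (q = 1.09e-05) and is not listed in SHR23. ZAT7, a zinc finger stress regulator, stood at 1.84 RPKM in iron-deficient wild type, 11.2 in pye-1, 1.43 in PPL, 1.02 in SHR23, 7.69 in PEP45, 4.41 in WER13 and 4.65 in WER65. SARA1A, a small GTPase of the secretory pathway, stood at 3.32, 23.5, 2.06, 2.60, 13.6, 20.6 and 11.1 RPKM in that order. In SHR23 these 3 genes lay below iron-deficient wild type, and in PEP45, WER13 and WER65 they lay above it.

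TI1, a trypsin inhibitor, stood at 45.7 RPKM in iron-deficient wild type, 116 in pye-1, 57 in SHR23, 80.4 in PEP45, 43.1 in WER13 and 78.2 in WER65. It rose in the authors' deposited tables of PEP45 and WER65. TI1 and 5 other members made up the pathogenesis-related and protease inhibitor genes, whose median placement was 0.147 in SHR23, 0.357 in WER13, 0.641 in WER65 and 0.789 in PEP45. Small heat shock protein genes, which encode chaperones, had 6 members, with medians of 0.264, 0.343, 0.631 and 0.80 in the same lines. Neither family was uniform in SHR23: the small heat shock genes AT5G51440 and AT1G53540 (placements 0.716 and 0.347) and the chitinase gene ChiC of the other family (0.601) rose in the authors' deposited table, and HSP17.6II was at 0.554. HSP17.6A stood at 0.104 RPKM with iron, 12.8 without iron, 32 in pye-1, 6.30 in PPL, 10.9 in SHR23, 20.8 in PEP45, 12.9 in WER13 and 23 in WER65. HSP17.6II, its neighbour, was listed at 0 with iron and stood at 0.920, 13.5, 0.919, 4.54, 10.3, 4.19 and 5.03 RPKM in the other groups. Members of this family resemble each other in sequence, so their separate values are uncertain. The summed root hair markers, given above, were 23.2 RPKM in SHR23, 25.1 in PEP45, 27.8 in WER13, 77.1 in WER65 and 19.9 in pye-1. The summed shoot markers were 37, 316, 15.6, 12.6 and 64 RPKM in that order. Any link of these sums to the placements was not tested.

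Some members fell below iron-deficient wild type. In the authors' deposited table of SHR23, AT1G26390, AT1G56060, AT1G71140, AT3G55790, AT4G21730 and PNP-A fell. In that of WER13, AT1G26390, AT3G55790, CYP82C2 and PLA2A fell. PNP-A rose in the authors' deposited tables of PEP45, WER13 and WER65, and AT1G71140 rose in that of PEP45. AT1G26390, a berberine bridge enzyme-like protein, stood at 0.0863 RPKM with iron, 10.4 without iron, 30.4 in pye-1, 13.7 in PPL, 4.06 in SHR23, 7.58 in PEP45, 4.84 in WER13 and 8.57 in WER65. It was the only member placed below 0 in PEP45, at -0.284. CYP82C2, a cytochrome P450, stood at 0.874 RPKM in iron-deficient wild type, 6.13 in pye-1, 2.31 in PPL and 0.266 to 1.15 in the other lines, so pye-1 was the group where it was high. PLA2A, a patatin-like lipase, went 12.1, 44.9, 17.8, 12.7, 16.6, 6.28 and 21.3 RPKM in iron-deficient wild type, pye-1, PPL, SHR23, PEP45, WER13 and WER65. AT4G21730, a transcribed pseudogene, fell in SHR23 and rose in PEP45, WER13 and WER65 in the authors' deposited tables. It stood at 11.1 RPKM in SHR23 and 77.2 in WER13, against 17.8 in iron-deficient wild type and 46.3 in pye-1.

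**Figure D5:**
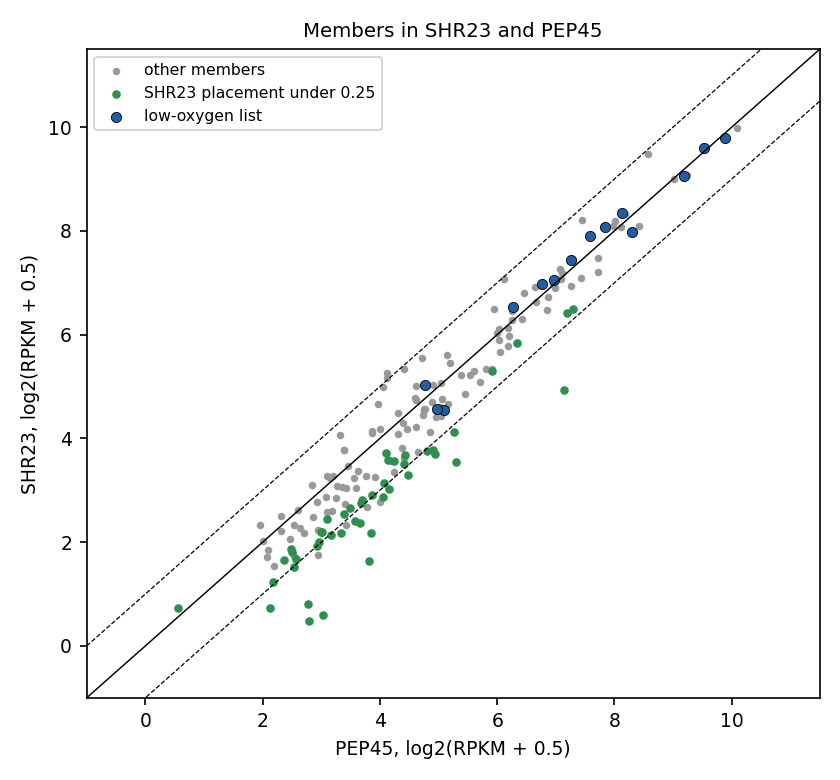
Each point is a member, placed by log2(RPKM + 0.5) in PEP45 (horizontal axis) and SHR23 (vertical axis); the solid line marks equal levels and the dashed lines a difference of 1. The 46 members with an SHR23 placement under 0.25 (green) lie mostly under the solid line, and the 14 low-oxygen members (blue) lie along it. The green members were picked for low SHR23 values, so their side of the line follows in part from that cut.

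Other members were higher in SHR23 than in any other group. The largest RPKM of a member was in pye-1 for 75, in WER13 for 42, in WER65 for 33, in SHR23 for 19 and in PEP45 for 13. ERF11, an ethylene response factor, stood at 5.76 RPKM in iron-deficient wild type, 14.4 in pye-1, 4.59 in PPL, 46.3 in SHR23, 25.7 in PEP45, 30 in WER13 and 21.4 in WER65. SAG29, a sugar transporter of the SWEET family, stood at 2.35, 10.2, 2.42, 31.1, 16.1, 18.6 and 13.4 RPKM in that order. AT4G36700, a cupin protein, stood at 8.81, 43.6, 5.94, 134, 69.2, 69.7 and 39.3 RPKM. The 3 genes had SHR23 placements of 2.31, 1.82 and 1.71, and in PPL were at or near the wild-type level. PUB19, a ubiquitin ligase gene, YUC5, an auxin synthesis gene, and AT4G39404, a non-coding RNA, also had placements above 1.8 in SHR23, at 2.23, 1.82 and 2.47. TH7, a thioredoxin, was highest in WER65, at 57.4 RPKM against 19.5 in pye-1 and 23.8 to 29.9 in SHR23, PEP45 and WER13.

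Set directly against pye-1, which the choice of members favours as the higher side, 139 members were at least 2-fold lower in PPL (2.91% of all genes kept) and none was at least 2-fold higher (3.64%). The same counts were 53 lower and 9 higher in SHR23 (1.58% and 2.23%), 6 and 0 in PEP45 (0.2% and 0.669%), 30 and 3 in WER13 (1.95% and 0.779%) and 19 and 1 in WER65 (1.01% and 0.972%). The 6 in PEP45 included CYP82C2, AT1G26390, AT1G26240 and PLA2A. The first 3 were also the lowest members against pye-1 in WER65, at -2.02, -1.77 and -1.74 on log2(RPKM + 0.5).

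Comparisons between the lines use none of the 3 groups whose differences chose the members, although 8 members reached the limit of 5 RPKM only in a line's column. SHR23 was lower than PEP45 for 126 members and higher for 56, with a median log2 difference of -0.31 against 0.00 over all genes kept. At least 2-fold, 25 members were higher in PEP45 than in SHR23 (1.17% of all genes kept) and 2 were higher in SHR23 (1.19%). ZAT7, PNP-A, PDF2.1 and SARA1A were the lowest in SHR23 relative to PEP45, at -2.43, -2.31, -2.21 and -2.19, and AT2G04070, AT4G39404, AT4G36700 and SAG29 the highest, at 1.14, 1.03, 0.94 and 0.93. Against WER13, SHR23 had 12 members at least 2-fold lower (0.354%) and 2 higher (1.6%), and against WER65 it had 22 lower (1.02%) and 5 higher (1.62%). WER13 and WER65 were close by median, with a difference of -0.02. At least 2-fold, 6 members were higher in WER65 (0.792%) and 1, AT4G21730, in WER13 (0.193%). Members with a placement under 0.25 numbered 21 in WER13 and 6 in WER65. AT5G38910, PLA2A, AT1G26240 and CYP82C2 were lowest in WER13 relative to WER65, at -1.79, -1.69, -1.22 and -1.09. PEP45 had 7 members at least 2-fold higher than WER13 (1.39%) and 1 lower (0.232%), and 1 higher than WER65 (1.09%) and 2 lower (0.727%). PPL stood apart from all 4: members at least 2-fold higher than in PPL numbered 77 in SHR23 (3.27%), 123 in PEP45 (3.07%), 116 in WER13 (3.24%) and 116 in WER65 (2.88%), while 5, 0, 5 and 0 were lower (3.54%, 2.9%, 5.57% and 3.89%). With 1 mean per group none of these differences between lines could be tested.

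Other lists had no members: suberin, JAZ repressors of jasmonate signalling, abscisic acid and dehydration, sugar starvation, redox metalloenzymes and the 5 marker lists. On the chromosomes, 20 members formed 10 pairs of neighbouring genes in the table. The pairs included DTX1 with AT2G04050, AT4G10265 with AT4G10270, HSP17.6II with HSP17.6A and AT2G32200 with AT2G32210, each pair having like annotation. DREB19 and AT2G38350 overlap by 275 bases on opposite strands and stood at 34.3 and 4.10 RPKM in pye-1, so reads of the pair may not be separated. In all, 34 members overlap another annotated gene, 32 of them on the opposite strand.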

How the data were processed

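RNA-seq was measured in 24 samples, 3 in each of 8 groups taken from the sample labels. Libraries were poly(A)-selected and directional, per the labels' protocols. Per the submitters' processing notes, TAIR10, FastQC, TopHat2 and edgeR were used; their versions and roles, and the counting program with its strand setting, were not stated there. The authors computed RPKM and deposited 1 mean per group, so no spread, interval or test of the differences was computed, and the planned limma test was not run. Genes that rose or fell are those in 7 deposited tables of q-values (adjusted p-values) made by the authors; their test is not stated. The table headed PYE was matched to PPL by values.

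Members were found with Python 3.11.15 scripts using pandas 2.3.3 and NumPy 2.4.6 (figures with Matplotlib 3.10.9), whose step was tested on simulated data; a pseudocount of 0.5 understates differences of low genes. The members, the 20 gene lists and the motifs were chosen with earlier results of these data known; 2 lists, 11 annotation families and 2 motifs were added after values were seen. Named genes were drawn from list members, the 10 largest pye-1 differences, the 10 highest in pye-1 and the 5 largest iron differences. They were also drawn from the extremes of each line against pye-1, of SHR23 against PEP45 and of WER13 against WER65. The genes nearest each limit were named too. Not every gene of these ranks is named, and others were picked after their values were seen. All 182 identifiers, and 32835 of 33602, matched RefSeq genes of TAIR10.1, from which names, starts and bases were read. The files carry no coordinates. Fold counts are on log2(RPKM + 0.5). Alternatives varied the pseudocount, the RPKM limit, the difference, the use of the authors' tables and column scaling.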

Additional observations from a re-analysis of the deposited data

How the results depend on the processing

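The 26 results (the number of members, and the shares of them listed, placed or at least 2-fold apart) were recomputed under 9 alternatives. Of 234 values, 219 stayed within 1.5 times the count, or within the 95% exact binomial interval of the share, and 15 did not. The interval treats members as independent, which they are not, and the sets of members overlap between alternatives. It is a yardstick for change only and measures no spread between samples. The number of members was 182; it was 67 with differences of at least 1.5 and 118 with a largest RPKM of at least 20, and between 143 and 259 under the other 7. With differences of at least 1.5, members at least 2-fold apart from pye-1 came to 92.5% in PPL, 7.46% in PEP45 and 20.9% in WER65, from 76.4%, 3.30% and 11%. Between lines they came to 22.4% for SHR23 and PEP45, 8.96% for PEP45 and WER13, 59.7% for PPL and SHR23, 86.6% for PPL and PEP45, and 80.6% for PPL with WER13 and with WER65. With differences of at least 0.8, the shares were 64.5% for PPL and pye-1, 57.5% for PPL with PEP45 and with WER13, and 52.5% for PPL and WER65. By construction, a higher limit keeps members with a wider span between wild type and pye-1. Shares listed as higher and shares nearer to pye-1 stayed within their intervals in every line under all 9. Column scaling factors ran from 0.983 to 1.01, and rescaling gave 181 members. No paired analysis was possible because the RPKM table holds 1 mean per group; leaving out replicates and a replicate block were not run for the same reason. Depth per library is known from low values only, and genes near 0 RPKM rest on few reads: 1 read in 1 of 3 libraries is worth 0.0139 to 0.0225 RPKM for a gene of 1 kb.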
